A study of Mus musculus with 5 samples.

Results

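Metallothioneins and glutathione peroxidases were followed in single-cell RNA sequencing of mouse ileal epithelium after sham surgery or small bowel resection. The set holds 6 genes chosen by symbol (Mt1, Mt2, Gpx1, Gpx2, Gpx4 and Mtf1) of the 27998 genes in the deposited matrices, and all 6 were found, each on 1 row. Epithelial cells of the distal small intestine came from C57BL/6 mice aged 8 to 12 weeks, and 3 libraries were labelled sham and 2 resection. The groups shared strain, tissue and age range, and the labels name no transgene. The labels do not say that each library came from its own animal. P-values between surgery groups thus measure the spread between these libraries, which may be technical. Those along position bins also draw on the spread between bins of a library, as given with that test.

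Metallothioneins are small cysteine-rich proteins that bind zinc and copper and also react with oxidants. Mt1 and Mt2 encode the ubiquitous forms, and Mtf1 encodes the zinc-sensing transcription factor that activates them through metal response elements in their promoters. Glutathione peroxidases reduce peroxides with glutathione, and those of this set are selenoproteins. Gpx1 is the cytosolic form and Gpx2 the form typical of the gastrointestinal epithelium. Gpx4 is the form that reduces lipid peroxides in membranes and so restrains ferroptosis.

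Mt2 and Mt1 are neighbours on chromosome 8 in GENCODE's annotation of GRCm38. Mt2 spans 94172664 to 94173568 and Mt1 spans 94179082 to 94180327, both on the plus strand, so Mt1 starts 5514 bases after Mt2 ends. An antisense gene, Gm45774, is annotated across Mt2 on the minus strand, and the sources used here do not state whether counting used strand. Gpx1 lies on chromosome 9 (108338903 to 108340343, plus strand), Gpx2 on chromosome 12 (76792333 to 76795554, minus strand), Gpx4 on chromosome 10 (80047166 to 80056439, plus strand) and Mtf1 on chromosome 4 (124802104 to 124849800, plus strand). All 6 are protein-coding genes.

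The promoters of the neighbouring pair are shown because Mt1 and Mt2 had like patterns over cell classes, and because Mtf1 acts through them. The sequences are RefSeq's for build GRCm38.p6, from 250 bases before the annotated start, 5′ to 3′ on the plus strand, and the bases of Mt1 that fall in its GENCODE exon are left out. Capitals mark every match to the core of the metal response element, written TGCACNC or TGCGCNC and searched on both strands.
Mt1, chr8:94178839-94179081: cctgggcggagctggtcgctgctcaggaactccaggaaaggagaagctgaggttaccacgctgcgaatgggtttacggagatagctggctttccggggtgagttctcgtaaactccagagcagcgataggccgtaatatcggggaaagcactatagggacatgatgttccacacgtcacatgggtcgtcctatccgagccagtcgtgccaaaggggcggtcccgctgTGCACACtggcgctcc
Mt2, chr8:94172368-94172617: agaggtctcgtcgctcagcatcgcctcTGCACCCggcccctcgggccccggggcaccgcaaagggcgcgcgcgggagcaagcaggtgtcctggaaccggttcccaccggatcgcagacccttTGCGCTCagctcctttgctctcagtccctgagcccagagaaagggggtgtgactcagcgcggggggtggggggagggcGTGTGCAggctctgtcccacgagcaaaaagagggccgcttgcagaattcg
The Mt1 window held 1 match, 23 to 17 bases before the RefSeq start. The Mt2 window held 3, of which the one nearest the start (50 to 44 bases before it) lies on the minus strand. No match overlapped another. Bases after the annotated start were not searched, so these are not counts for a whole promoter. Of 32851 RefSeq promoters of 250 bases, 21.4% held at least 1 such match and 5.18% at least 2. The 250-base windows of Gpx2 and of 2 of the 4 annotated starts of Gpx4 held none, which says only that these letters are not in those windows. The windows of Gpx1, Mtf1 and the other 2 starts of Gpx4 were left at 73, 6, 173 and 79 bases once annotated exons were taken out, and nothing is read from them. An antioxidant response element core, TGACNNNGC, was also searched: Mt2 held 1 match, Mt1 and the full windows of Gpx2 and Gpx4 none, and 10.2% of promoters held one.

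The libraries held 11749028 to 41281731 UMIs (unique molecular identifiers, 1 per captured transcript), with a median of 4541 to 6239.5 per cell. Of 19404 cells, 18235 remained after filters and doublet removal and fell into 22 clusters, which were named from marker genes with the 6 genes left out of clustering. The classes were 10744 enterocyte-like, 3757 immature enterocyte-like, 1670 crypt progenitor-like (stem-like and cycling-like), 1041 Paneth-like, 549 goblet-like, 451 T cell-like and 23 tuft-like cells. Sham 1 and resection 1 stood apart from the other 3 libraries: their median mitochondrial share was 13.7% and 11.7% against 7.24% to 9.19%, and most of their cells formed clusters of their own. Their immature cells lay in cluster 8, led by Gm10263, Dmbt1 and Wdr89, and those of the other libraries in clusters 0 and 11. Most enterocyte-like clusters came largely from 1 library, and sham 1 had 0 stem-like cells, so its 65 crypt progenitor-like cells were all cycling-like. Any pair of libraries shared 6 to 47 cell barcodes.

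The metallothioneins were most abundant in immature enterocyte-like cells, between crypt and villus. This class was named from Gsdmc2, Gsdmc3, Gsdmc4, Dmbt1, Reg3g, Ccl25 and Lypd8 together. Of its clusters only cluster 0 had Gsdmc genes among its leading genes, while cluster 8 had Dmbt1 and cluster 11 Lypd8. Levels are given as CPM, the UMIs of a gene as a share of all UMIs in the cells of a class, summed per library and with TMM scaling across classes. Mt1 in immature cells was 355, 994 and 1116 CPM in sham 1 to 3 and 526 and 1202 CPM in resection 1 and 2, a mean of 839 ± 376 (SD, n = 5). Sham 1 and resection 1 were the low pair, whatever their surgery label. In each of the 5 libraries this was above the Mt1 level of every other class, although the ranges over libraries overlapped. Crypt progenitor-like cells followed with 518 ± 218 CPM, 4 of 5 libraries above goblet-like cells (416 ± 158) and 4 of 5 above enterocyte-like cells (401 ± 192), and the last 2 classes did not differ beyond their spread.

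Mt2 had the same leading classes. Its level in immature cells was 99.7, 320 and 396 CPM in sham 1 to 3 and 157 and 499 CPM in resection 1 and 2, a mean of 294 ± 166 (SD, n = 5). Crypt progenitor-like cells had 138 ± 75.2 CPM and goblet-like cells 110 ± 40.0. Enterocyte-like, Paneth-like and T cell-like cells lay at 69.5, 69.5 and 71.6 CPM and could not be ordered.

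Gpx1, the cytosolic peroxidase, was also highest in immature cells. It reached 554, 890 and 948 CPM in sham 1 to 3 and 571 and 1027 CPM in resection 1 and 2, a mean of 798 ± 221 (SD, n = 5). This range lay above that of every other class. Crypt progenitor-like cells had 435 ± 94.7 CPM and goblet-like cells 389 ± 87.8, and enterocyte-like cells had 257 ± 119, with the lowest value (102 CPM) in resection 1. The enterocyte-like mean did not differ beyond the spread from that of Paneth-like cells (273 ± 82.6), which was the lower of the 2 on unscaled CPM. Mt2 and Gpx1 were among the 10 leading genes of cluster 0 although neither took part in forming it. Because clusters use the whole transcriptome, these class levels are a description without a test.

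Gpx4, the lipid peroxidase, had the opposite order. Enterocyte-like cells had 434, 999 and 895 CPM in sham 1 to 3 and 879 and 1179 CPM in resection 1 and 2, a mean of 877 ± 275 (SD, n = 5). Crypt progenitor-like cells had 274 ± 56.8 and immature cells 340 ± 99.9 CPM, and both ranges lay below that of enterocyte-like cells. T cell-like (601 ± 218), goblet-like (517 ± 181) and Paneth-like cells (477 ± 229) lay between and overlapped each other.

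Mtf1, the metal-sensing factor, also peaked in enterocyte-like cells, away from the classes richest in its metallothionein targets. Its level there was 30.01, 39.5 and 43.1 CPM in sham 1 to 3 and 32.9 and 41.9 CPM in resection 1 and 2, a mean of 37.5 ± 5.75 (SD, n = 5). Immature cells had 19.5 ± 3.05 and crypt progenitor-like cells 10.4 ± 3.66 CPM, and neither range reached that of the enterocyte-like cells. The crypt progenitor-like mean rested on few molecules, from 3 UMIs in sham 1 to 72 in resection 2.

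Gpx2, the epithelial peroxidase, was spread most evenly. Enterocyte-like cells had 673, 791 and 1431 CPM in sham 1 to 3 and 664 and 610 CPM in resection 1 and 2, a mean of 834 ± 340 (SD, n = 5). Sham 3 stood above the other 4 libraries in each class. The other class means lay between 498 and 689 CPM with overlapping ranges, and on unscaled CPM the crypt progenitor-like mean (893) exceeded that of enterocyte-like cells (888), so the order of Gpx2 is not settled by these data.

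Scaling mattered for Paneth-like cells, where the 7 Paneth markers took an unscaled 304938 to 354228 CPM. TMM scaling put their Mt1 mean at 289 CPM and unscaled CPM at 80.3, and on the unscaled scale Paneth-like cells had the lowest mean of the 6 classes for each of the 6 genes. Gpx2 UMIs were also found in T cell-like droplets, although T cells are not known for the gene: with every cell thinned to 2000 UMIs, 50% to 82.5% of them had one, against 61.6% to 91.8% of enterocyte-like cells. The median depth was 3981 to 6702.5 UMIs in T cell-like and 4070 to 5875 UMIs in enterocyte-like cells, and without thinning the shares were 81.1% to 97.5% and 80.0% to 99.0%. The share in Paneth-like cells, 19.1% to 44.1%, lay below that of the T cell-like droplets of the same library, so no expression is read from it. On the TMM scale the order was the opposite, with Gpx2 higher in Paneth-like than in T cell-like cells in 5 of 5 libraries.

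**Figure D1:**
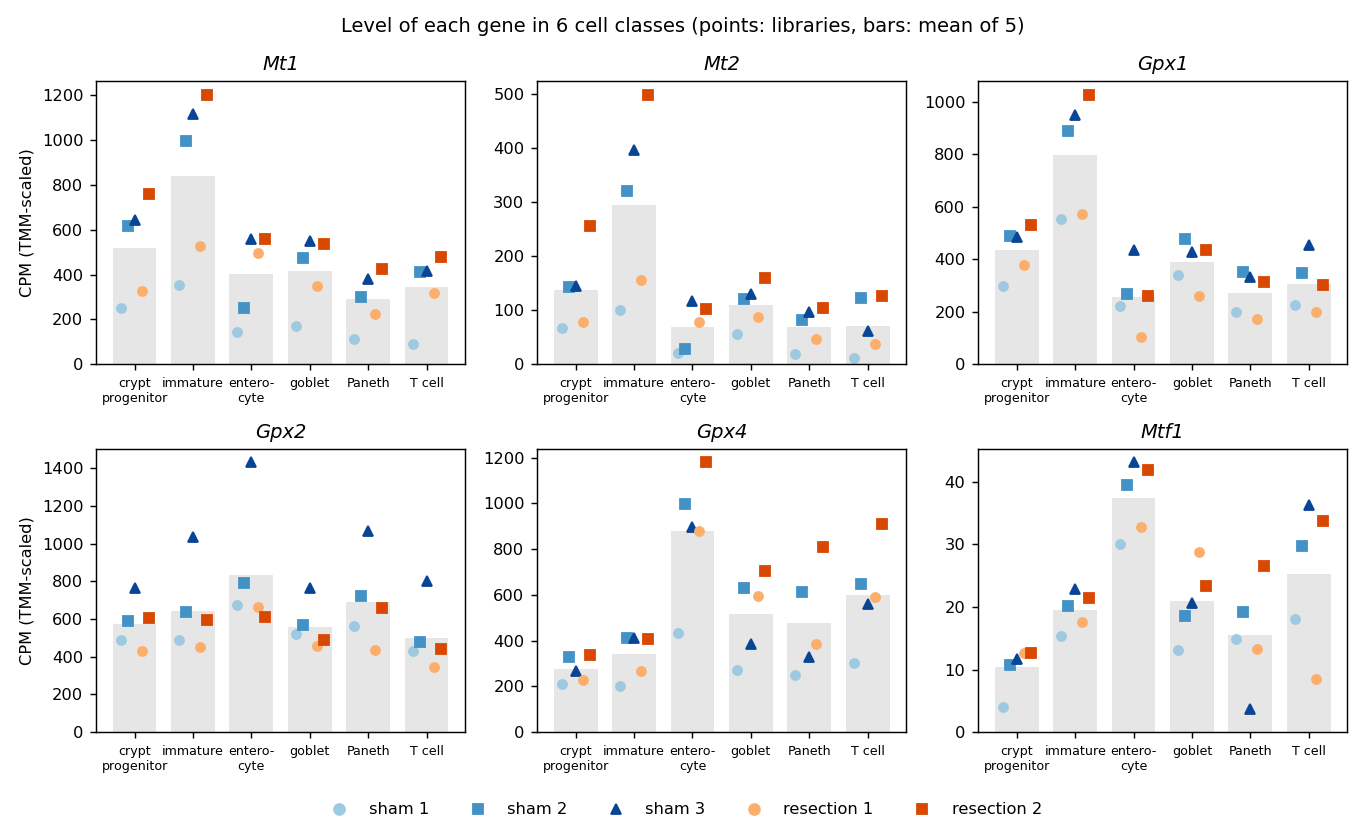
Level of each gene (CPM with TMM scaling, vertical axis from 0) in 6 cell classes; points are the 5 libraries and grey bars their mean. Mt1, Mt2 and Gpx1 have their tallest bar in immature enterocyte-like cells (839, 294 and 798 CPM), Gpx4 and Mtf1 in enterocyte-like cells (877 and 37.5 CPM).

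Mt1 was detected more often in cells with a Mt2 UMI than in cells without one, in immature, crypt progenitor-like and enterocyte-like cells. With cells thinned to 2000 UMIs, Mt1 was detected in 87.5%, 93.9% and 93.2% of the Mt2-positive immature cells of sham 1 to 3, against 42.8%, 64.3% and 68.6% of the Mt2-negative ones. In resection 1 and 2 the shares were 86.5% and 94.7% against 58.3% and 73.8%. The direction was the same in the 5 libraries, also in enterocyte-like cells (60.0% to 87.4% against 22.0% to 47.0%). In Paneth-like cells, where 4 to 16 cells of a library had a Mt2 UMI, it held in 4 of 5 libraries and was the opposite in resection 2 (6.25% against 24.4%). The 10% of enterocyte-like cells with the most Mt1 held 43.8% to 62.0% of its UMIs, against 31.1% to 40.2% in immature cells. Such a share rises as the mean per cell falls. The thinned mean was 0.36 to 1.15 UMIs in enterocyte-like and 1.04 to 2.84 in immature cells, so no concentration is read from it. All these shares rest on cells, which share a library, and thinning leaves many cells of low expression without a UMI.

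Along the crypt-to-villus axis the 6 genes divided in the same way. Crypt progenitor-like, immature and enterocyte-like cells were ordered by a score of 17 enterocyte over 26 crypt landmark genes, none of them among the 6, and each library was cut into 5 bins of equal cell number, bin 1 at the crypt end and bin 5 at the villus end. In edgeR's quasi-likelihood test with library as a block, 77.8% of 10071 genes differed between bin 5 and bin 1, 38.5% higher and 39.4% lower. This fit took all bins of a library as separate sums once the library's own level was removed. Its p-values, here and along the villus bins, can therefore be smaller than those of a comparison over libraries alone. All 6 genes passed (adjusted p below 0.05), a count that this high background does not set apart. Mt1, Mt2 and Gpx1 were lower at the villus end, and Gpx2, Gpx4 and Mtf1 higher.

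Mt1 was 322, 1005 and 824 CPM in bin 1 of sham 1 to 3 and 480 and 1153 CPM in resection 1 and 2. In bin 5 it was 161, 271 and 621 CPM in sham and 571 and 590 CPM in resection. With TMM scaling it fell in 4 of 5 libraries, by 0.84 ± 0.20 (SE) on the log2 scale over all of them (edgeR adjusted p = 0.000369). Resection 1 alone was higher at the villus end, by 0.25, and that rise rested on the scaling. Unscaled, its Mt1 was 3623 of 5458430 UMIs in bin 1 and 1911 of 3523509 in bin 5, a smaller share. Mt2 changed by -1.74 ± 0.28 (edgeR adjusted p = 2.13e-06) and was lower in 5 of 5 libraries. Its mean level went from 232 CPM through 273 CPM in bin 2 to 71.8 CPM.

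Gpx1 had 565, 886 and 654 CPM in bin 1 of sham 1 to 3 and 569 and 931 CPM in resection 1 and 2. At the villus end the sham libraries had 208, 287 and 378 CPM, and the resection libraries 119 and 222 CPM. Each of these values lay below each crypt-end value, and the difference was -1.70 ± 0.17 (edgeR adjusted p = 6.87e-10). The decline came after bin 2, whose mean (739 CPM) was close to that of bin 1 (721 CPM).

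Gpx4 rose from 245, 412 and 337 CPM in sham 1 to 3 and 271 and 422 CPM in resection 1 and 2 to 520, 1151 and 1195 CPM in sham and 1100 and 1570 CPM in resection. The change was 1.67 ± 0.11 (edgeR adjusted p = 7.63e-14), upward in 5 of 5 libraries. Mtf1 rose by 1.42 ± 0.12 (edgeR adjusted p = 8.86e-12), from a mean of 16.9 to 46.1 CPM, also in 5 of 5 libraries. Gpx2 rose by only 0.35 ± 0.10 (edgeR adjusted p = 0.00174), and in resection 2 it was lower at the villus end, by 0.17. Without TMM scaling Gpx2 was a smaller share at the villus end in sham 2 as well (3156 of 3965351 UMIs in bin 1, 1903 of 2645757 in bin 5). Unscaled Gpx2 was a larger share there in sham 1, sham 3 and resection 1. Its call was lost when cells were limited to a mitochondrial share of 10% (0.27, adjusted p = 0.0591), which left sham 1 with 8 or 9 cells in a bin. With sham 1 left out as well it passed (0.29, adjusted p = 0.0450).

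Bin 1 was not the same mixture in every library. In sham 3 crypt cells made up most of it, with 12.8% immature cells, while immature cells made up 48.2% to 62.0% in the other libraries. In sham 3 the levels of Mt1, Mt2 and Gpx1 were higher in bin 2 than in bin 1, at 1327 against 824 CPM, 459 against 198 CPM and 1155 against 654 CPM. What share of a profile the mixture accounts for was not tested.

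**Figure D2:**
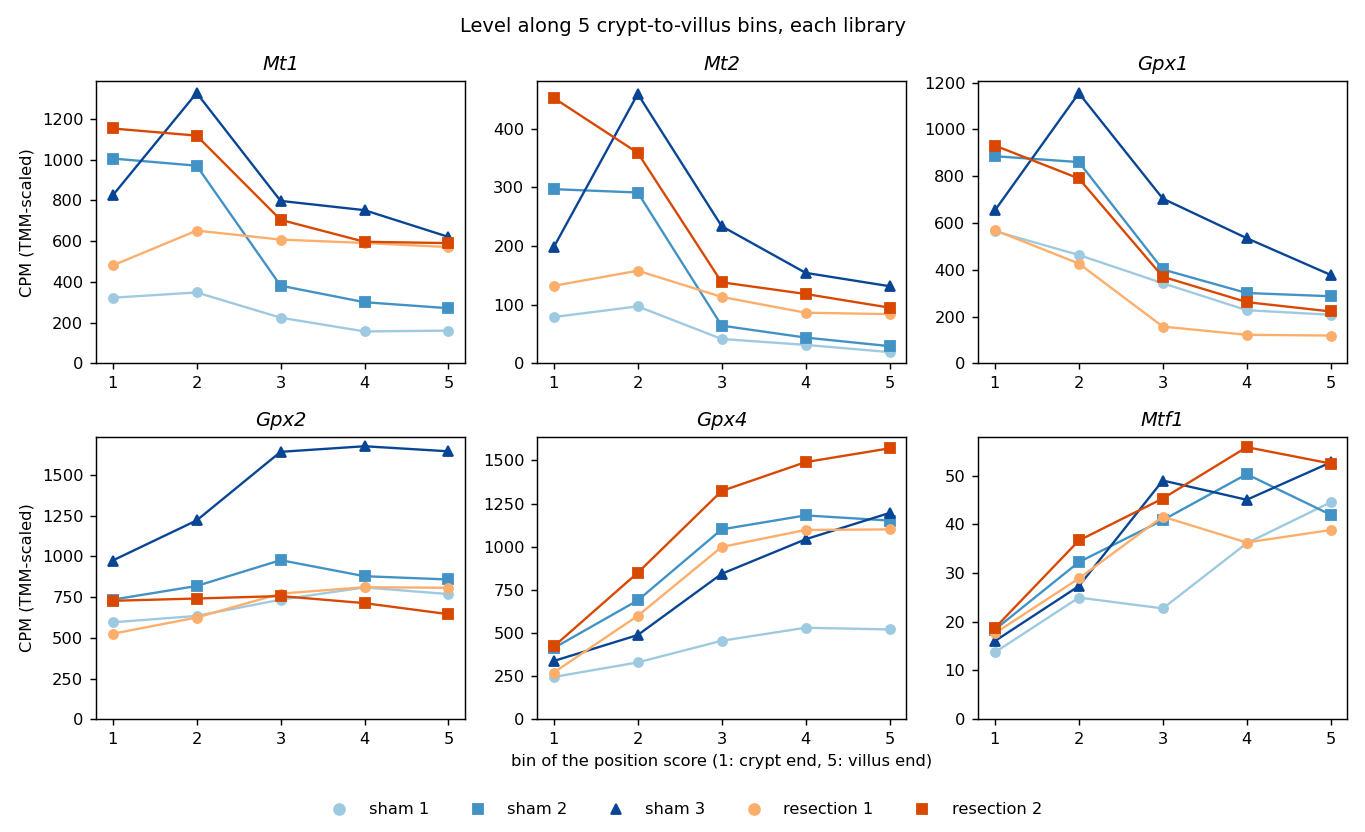
Level of each gene (CPM, vertical axis from 0) in the 5 bins of the crypt-to-villus score, 1 line per library. Mt1, Mt2 and Gpx1 are highest in bin 1 or 2 in each library, although resection 1's Mt1 stays between 480 and 651 CPM throughout; Gpx4 and Mtf1 are lowest in bin 1.

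Within mature enterocytes the peroxidases parted. Enterocyte-like cells were ordered by 9 villus-tip over 10 lower-villus landmark genes and cut into 4 equal villus bins within each library. Between villus bin 4 (the tip) and villus bin 1, 43.6% of 8614 genes differed (21.8% higher and 21.8% lower), and 5 of the 6 genes did. Gpx1 was lower at the tip in 5 of 5 libraries (-1.58 ± 0.15, edgeR adjusted p = 4.56e-09), and its mean went step by step from 389 through 321 and 221 to 145 CPM. Gpx2, whose small rise from crypt to villus was not shared by all libraries, was lower at the tip in 5 of 5 libraries (-0.77 ± 0.11, edgeR adjusted p = 4.07e-06), from 1050 to 667 CPM. Gpx4 was higher at the tip in 5 of 5 (0.52 ± 0.07, edgeR adjusted p = 9.90e-07), from 782 to 1144 CPM.

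Mt2 was lower at the tip by -0.93 ± 0.16 (edgeR adjusted p = 3.48e-05) in 4 of 5 libraries, the exception being sham 1, which held 19.2 to 25.9 CPM in all 4 bins. Mt1 was lower by -0.37 ± 0.10 (edgeR adjusted p = 0.00320) in 5 of 5 libraries, and this call was lost without resection 2 (-0.22, adjusted p = 0.0507). Mtf1 did not pass (0.04 ± 0.09, edgeR adjusted p = 0.737), with bin means of 38.0 to 44.2 CPM.

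**Figure D3:**
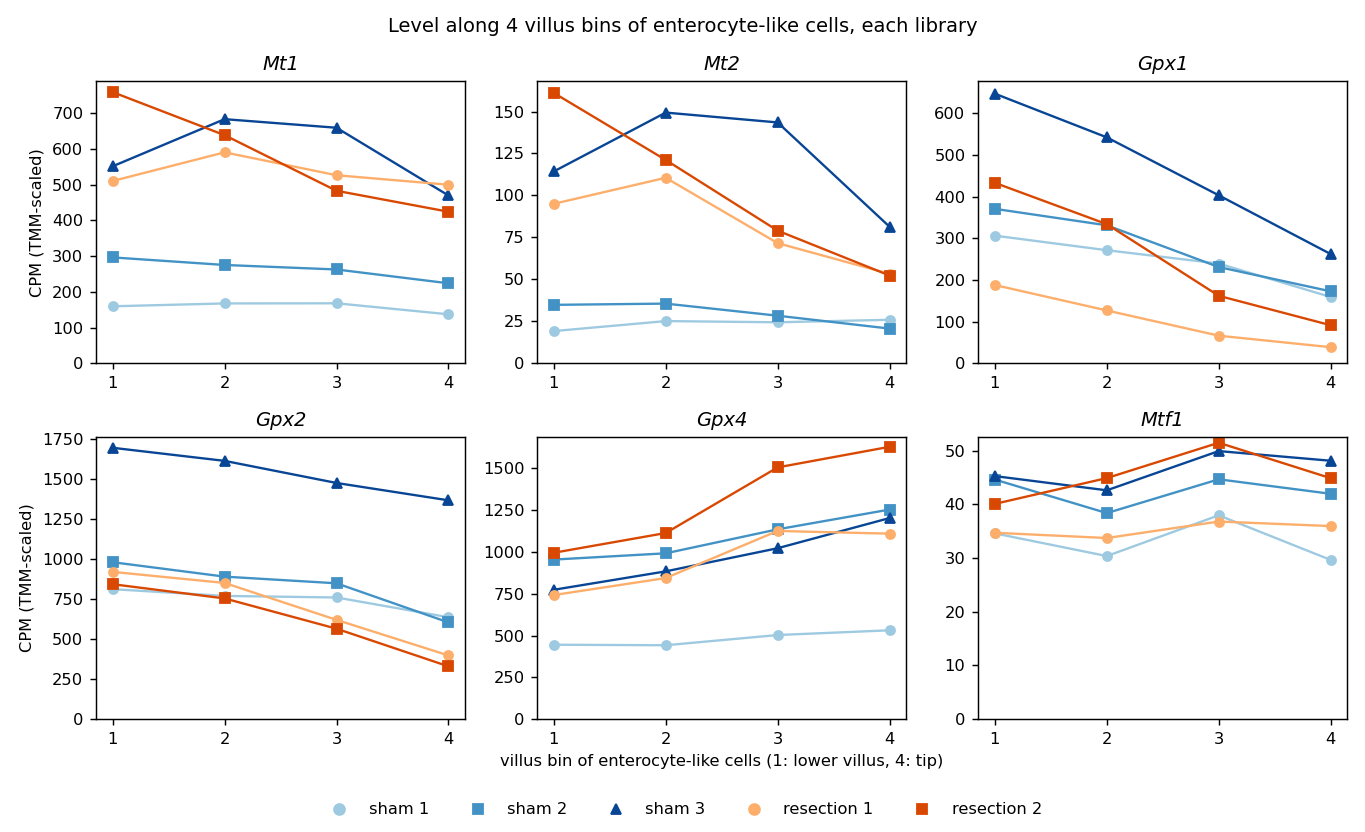
Level of each gene (CPM, vertical axis from 0) in the 4 villus bins of enterocyte-like cells, 1 line per library. In bin 4 both resection libraries lie below the 3 sham libraries for Gpx1 and Gpx2, and sham 3 is the highest library for Gpx2 throughout.

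The villus decline of Gpx1 and Gpx2 was steeper in the resection libraries. The difference between villus bin 4 and villus bin 1 of Gpx1 was -0.94, -1.10 and -1.30 on the log2 scale in sham 1 to 3 and -2.25 and -2.23 in resection 1 and 2. The groups did not overlap, and the interaction of surgery with position was -1.12 ± 0.17 (edgeR adjusted p = 0.000122). For Gpx2 the differences were -0.35, -0.70 and -0.31 in sham and -1.21 and -1.35 in resection, with an interaction of -0.83 ± 0.15 (edgeR adjusted p = 0.00132). Of 8726 genes, 2.75% passed this test, 2.33% with a more negative and 0.424% with a more positive difference in resection. An exact permutation test over libraries gave p = 0.1 for each gene, two-sided, the smallest value that 3 against 2 libraries allow.

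In the tip bin Gpx1 was 159, 173 and 262 CPM in sham 1 to 3 and 38.8 and 91.6 CPM in resection 1 and 2. Gpx2 was 637, 604 and 1367 CPM in sham and 398 and 330 CPM in resection. For both genes the resection libraries thus lay below the sham range, as they did for 11.2% of genes in that bin, and for 11.9% of genes they lay above it. In villus bin 1 the groups overlapped for both genes, at 188 to 647 CPM for Gpx1 and 812 to 1695 CPM for Gpx2.

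Tip position itself differed between the groups. The tip bin of the resection libraries began at a tip score of -3.90 and -3.42, against -4.61, -4.83 and -4.67 in sham 1 to 3, and its median score was -2.62 and -2.70 against -4.07, -4.09 and -3.80. With boundaries common to all libraries, an alternative chosen after seeing the data, the interaction was -0.79 for Gpx1 (edgeR adjusted p = 0.0275) and -0.58 for Gpx2 (adjusted p = 0.143), so that the Gpx2 call was lost. Even then the median score of the last bin was -3.04 and -3.20 in resection against -3.87, -3.67 and -3.40 in sham. The part of tip position in what remained was not tested. The Gpx2 call was also lost with every second landmark gene left out (-0.56, adjusted p = 0.137), and that of Gpx1 without the Reg genes in the lower-villus list (-0.70, adjusted p = 0.0505).

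Mt2 had an interaction of -0.83 ± 0.26 that did not pass (edgeR adjusted p = 0.0912). It passed with no filter on low counts (adjusted p = 0.0188), at a mitochondrial share of at most 10% (-1.34, adjusted p = 0.00226, with 5 or 6 cells in a bin of sham 1, and -1.33, adjusted p = 0.00137, with sham 1 left out too) and without resection 1 (-1.19, adjusted p = 0.00912), and it was 0.03 without the Reg genes. Mt1 (-0.15 ± 0.19), Gpx4 (0.21 ± 0.15) and Mtf1 (0.15 ± 0.22) did not pass.

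Over the whole crypt-to-villus axis, 0 of 10398 genes passed the same interaction with edgeR (636 had an unadjusted p below 0.05), and so none of the 6. The size of the difference was largest among the 6 for Gpx1, with -0.95 ± 0.28 (adjusted p = 0.455), from villus differences of -1.44, -1.62 and -0.79 in sham 1 to 3 and -2.25 and -2.06 in resection 1 and 2. Without sham 3, 1.08% of 10294 genes passed, and Mt1 (1.06, adjusted p = 0.0322) and Mt2 (1.40, adjusted p = 0.0366) were among them, each with a smaller decline in resection.

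**Figure D4:**
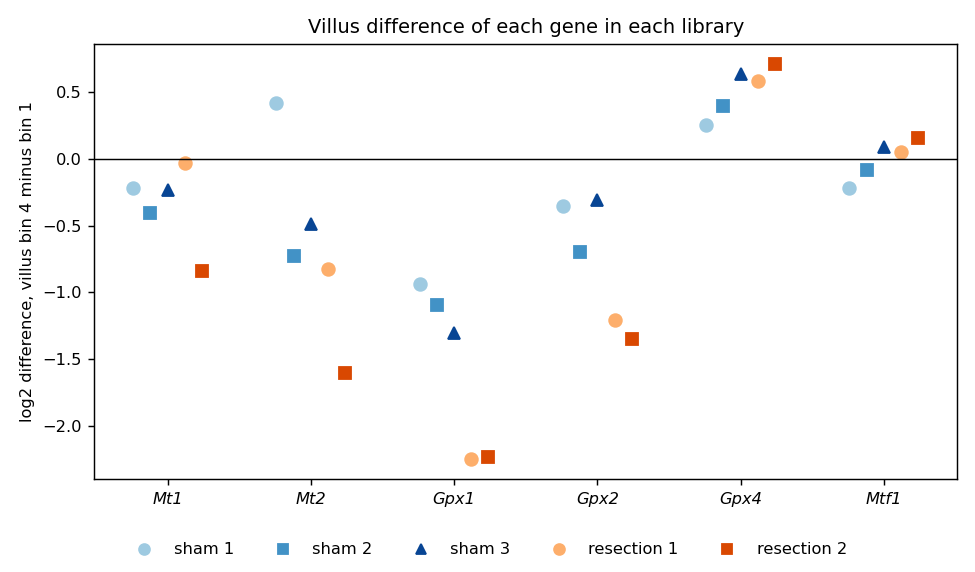
Difference between villus bin 4 and villus bin 1 (log2, vertical axis) of each gene in each library; values below 0 mean a lower level at the tip. The 2 resection libraries lie below the 3 sham libraries for Gpx1 (-2.25 and -2.23 against -0.94 to -1.30) and Gpx2 (-1.21 and -1.35 against -0.31 to -0.70), and for Mt2 they lie at -0.82 and -1.60 against 0.41 to -0.72.

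Between the surgery groups as such, none of the 6 genes passed in the 4 classes tested or in all epithelial cells together. The test compared resection with sham on UMIs summed per library, scaled within the class. edgeR called 0% of 10219 genes in enterocyte-like cells (511 had an unadjusted p below 0.05, and DESeq2 called 64), 0% of 10081 in immature cells (149 unadjusted, DESeq2 2), 0% of 9703 in crypt progenitor-like cells (138 unadjusted, DESeq2 2), 0.0472% of 6357 in Paneth-like cells (135 unadjusted, DESeq2 5) and 0% of 11721 in all epithelial cells (322 unadjusted, DESeq2 33). DESeq2 called none of the 6 genes either.

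In enterocyte-like cells Mt1 was 156, 270 and 604 CPM in sham 1 to 3 and 527 and 600 CPM in resection 1 and 2. Sham 3 lay with the resection libraries and the groups overlapped, so the difference of 0.72 ± 0.53 did not pass (edgeR adjusted p = 0.999). It was 1.75 between resection 1 and sham 1 and 0.57 between resection 2 and the mean of sham 2 and sham 3, the 2 sets in which the libraries fell. Mt2 was 23.4, 30.9 and 126 CPM in sham and 83.3 and 111 CPM in resection (0.68 ± 0.67, edgeR adjusted p = 0.999; 1.79 and 0.81 within the sets). With 1 library left out, Mt1 ranged from 0.37 (without sham 1) to 1.41 (without sham 3) and Mt2 from 0.31 to 1.83, again without sham 1 and sham 3, and neither passed. The unscaled sum of 5 glucocorticoid-responsive genes in the same cells was 251, 210 and 73.2 CPM in sham 1 to 3 and 540 and 251 CPM in resection 1 and 2, and that of 9 dissociation-response genes was 2375, 2211 and 2415 CPM in sham and 3838 and 2024 CPM in resection. The part of either list in the metallothionein levels was not tested.

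Gpx2 in enterocyte-like cells was 731, 854 and 1548 CPM in sham 1 to 3 and 707 and 659 CPM in resection 1 and 2. Both resection libraries lay below the sham range, as they did for 8.32% of genes (10.1% lay above it), and the difference was -0.61 ± 0.40 (edgeR adjusted p = 0.999). Within the sets it was -0.05 and -0.80, so that resection 1 and sham 1 hardly differed. Gpx1 was 240, 288 and 470 CPM in sham and 109 and 279 CPM in resection (-0.78 ± 0.49, edgeR adjusted p = 0.999; -1.14 and -0.40 within the sets). With 1 library left out, Gpx1 ranged from -1.61 (without resection 2) to -0.25 (without resection 1) and Gpx2 from -0.81 (without sham 1) to -0.22 (without sham 3), and neither passed. Gpx4 was 472, 1079 and 968 CPM in sham and 935 and 1272 CPM in resection (0.39 ± 0.42), and Mtf1 was 32.6 to 46.6 CPM in sham and 34.9 and 45.2 CPM in resection (-0.02 ± 0.26). For each of the 6 genes except Gpx2 the groups overlapped.

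In immature and crypt progenitor-like cells the set of a library went with larger differences than its surgery label. Immature Mt1 was 467 CPM in sham 1 and 683 CPM in resection 1, against 1354 and 1517 CPM in sham 2 and 3 and 1629 CPM in resection 2. Mt2, Gpx1 and Gpx4 had the same low pair there, as did Mt1, Mt2, Gpx1 and Gpx4 in crypt progenitor-like cells, with or without TMM scaling. Gpx2 in both classes and Mtf1 in immature cells had it only with TMM scaling: unscaled immature Gpx2 was 767 CPM in sham 1, 756 in sham 2 and 736 in resection 2. The low pair had the higher mitochondrial share (13.4% and 10.6% of UMIs in immature cells against 6.90% to 8.35%), whose part was not tested. Resection within each set differed from sham by 0.55 and 0.18 for immature Mt1 and by 0.63 and 0.48 for immature Mt2. In crypt progenitor-like cells both resection libraries exceeded every sham library for Mtf1 (19.1 and 19.9 against 6.14, 17.3 and 18.9 CPM), with a difference of 0.28 ± 0.35 that did not pass. The same held for 5.88% of genes there, and the opposite for 4.6%. In immature cells 6.87% of genes lay above and 5.05% below the sham range, in Paneth-like cells 7.35% above and 6.32% below, and over the whole epithelium 7.98% above and 6.19% below. The groups overlapped for the 6 genes in each of these. Paneth-like cells held few UMIs of these genes, such as 103 to 286 of Mt1 per library.

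**Figure D5:**
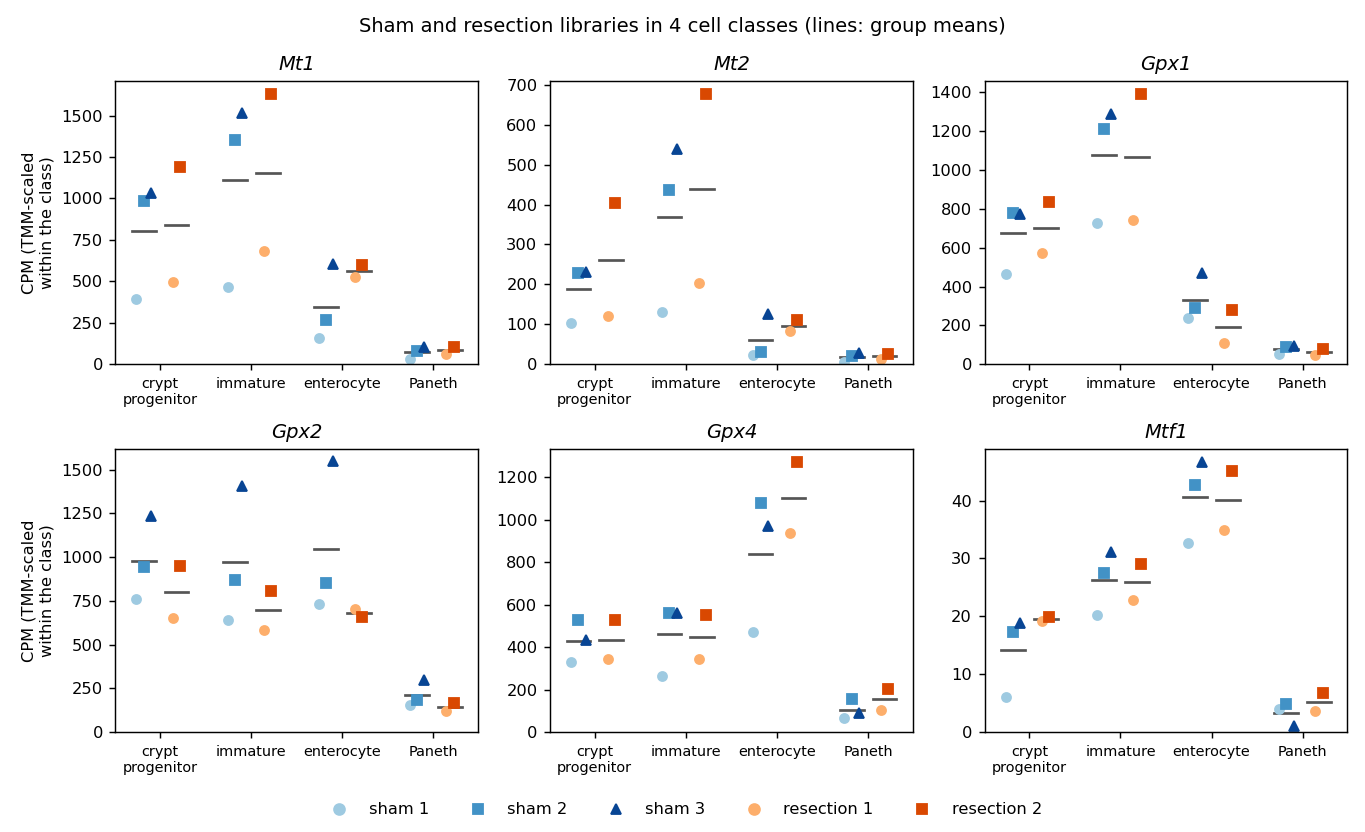
Level of each gene in sham (blue) and resection (orange) libraries in 4 cell classes; points are libraries, lines are group means, and CPM are scaled within each class, so classes should not be compared. The groups overlap in each panel and class except for Gpx2 in enterocyte-like cells (731 to 1548 against 659 and 707 CPM) and Mtf1 in crypt progenitor-like cells.

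More of the other metal-handling genes were higher than lower at the villus end. Of 29 listed genes, mostly metal transporters and chaperones, 25 were tested along the 5 crypt-to-villus bins. At the villus end 16 were called higher and 4 lower. Their median was 0.67 against -0.01 over all genes, of which 38.5% were called higher and 39.4% lower. The copper importer Slc31a1 rose by 2.04 ± 0.10 (edgeR adjusted p = 5.40e-16), from 47.5 to 196 CPM. The zinc importer Slc39a4 rose by 2.17 ± 0.12 (edgeR adjusted p = 3.72e-15), from 34.5 to 155 CPM, and the vesicular zinc transporter Slc30a2 by 2.68 ± 0.15 (edgeR adjusted p = 4.31e-15), from 9.75 to 60.1 CPM. Between surgery groups in enterocyte-like cells 0 of 24 passed and 0 had an unadjusted p below 0.05. Slc30a1, the zinc exporter of the plasma membrane, had 83.3 ± 8.35 CPM in sham (SD, n = 3) and 63.5 ± 6.55 in resection (n = 2), a difference of -0.42. Slc31a1 and the zinc importer Slc39a14 had differences of 0.45 and 0.48.

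The antioxidant list of 35 genes had no common direction, with 11 higher and 9 lower of 27 tested along the crypt-to-villus bins and a median of -0.05. Cat (catalase) rose by 2.18 ± 0.11 (edgeR adjusted p = 5.46e-16), Glrx (glutaredoxin) by 2.39 ± 0.12 (edgeR adjusted p = 5.85e-16) and Slc3a2, the heavy chain of the cystine transporter, by 1.99 ± 0.10 (edgeR adjusted p = 5.14e-16). Of 27 tested between surgery groups in enterocyte-like cells, 0 passed and 1 had an unadjusted p below 0.05. Gsr, which regenerates the glutathione that the peroxidases use, had 403 ± 88.9 CPM in sham and 245 ± 31.2 in resection (-0.74 ± 0.33, edgeR adjusted p = 0.999). Cat had 135 ± 26.4 and 207 ± 20.4 CPM (0.60 ± 0.28), and Prdx6 241 ± 65.3 and 167 ± 39.0 CPM (-0.55 ± 0.33).

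Of 20 genes for other selenoproteins and the selenium machinery, 19 were tested along the crypt-to-villus bins, and 9 were higher and 6 lower at the villus end, with a median of 0.22, near the shares over all genes. Sepp1, which encodes the secreted selenium carrier selenoprotein P, rose by 4.02 ± 0.22 (edgeR adjusted p = 2.77e-15), from 176 to 2771 CPM. The deiodinase gene Dio1 rose by 3.29 ± 0.20 (edgeR adjusted p = 2.62e-14) and Msrb1, a methionine sulfoxide reductase, by 1.15 ± 0.09 (edgeR adjusted p = 5.58e-12). Between surgery groups in enterocyte-like cells 0 of 19 passed and 2 had an unadjusted p below 0.05. Sepp1 had 1183 ± 758 CPM in sham and 3286 ± 289 in resection (1.46 ± 0.51, edgeR adjusted p = 0.939), Dio1 had 42.4 ± 15.0 and 88.3 ± 5.83 CPM (1.04 ± 0.32, edgeR adjusted p = 0.823), and Vimp had 119 ± 59.2 and 87.0 ± 27.1 CPM (-0.47 ± 0.47).

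The genes most like each of the 6 were found by the Pearson correlation of log2(CPM + 10) over 34 sums of library and class, among 4456 genes with a mean of at least 20 CPM. These sums share libraries, depth and cell class, so the values are a description. Mt1 and Mt2 were each other's nearest gene (r = 0.94). Mt1 was next followed by Mrpl34 (0.91) and Txn1 (0.91), and Mt2 by 1110001J03Rik (0.86) and Ndufs6 (0.85). Gpx1 was nearest to Pycard (0.94), Ctsh (0.90) and Krt19 (0.89), Gpx2 to Elf3 (0.82), Manf (0.78) and Slmo2 (0.76), Gpx4 to Scp2 and B2m (each 0.95), and Mtf1 to Chp2 (0.92), Abhd6 (0.90) and Papss1 (0.90). Mtf1 had r = 0.17 with Mt1 and 0.08 with Mt2, and 0.77 with Gpx4. Among the 3 peroxidases, Gpx1 had r = 0.37 with Gpx2 and -0.21 with Gpx4, and Gpx2 had r = 0.22 with Gpx4.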

How the data were processed

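Chromium single-cell 3′ libraries of epithelial cells were counted with Cell Ranger, per the labels, which mark its version as uncertain. The submitters' processing notes name the builds mm10 and GRCm38. The deposited matrices hold raw UMI counts per gene and cell, and filters used by the authors are not given in the sources used here. The 6 genes, the lists and the tests were chosen with earlier results of these data known.

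Cells needed 500 genes or more and a mitochondrial share of 20% or less. Likely doublets, scored against 2 simulated doublets per cell, were taken out at a rate set by the number of cells in the library (720 of 18955 cells, 3.80%). Leiden clustering (leidenalg 0.10.2, resolution 1) used 2000 variable genes, 30 components and 20 neighbours. A class needed its markers, and "like" marks that the names were rebuilt here. Position scores were log2((later list + 1)/(earlier list + 1)) per 10000 UMIs; 15.3% of cells on the crypt-to-villus axis and 15.2% on the villus axis lay within 0.1 of a boundary. The named genes of each pathway list were the 3 with the lowest unadjusted p along the crypt-to-villus bins and the 3 with the lowest between surgery groups in enterocyte-like cells, at a mean of at least 20 CPM; the 3 nearest genes by correlation were named for each member, except 1 that is not reported here.

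Counts were summed per library and class or bin (at least 20 cells, except for sham 1 in the bins of the 10% mitochondrial alternative) and tested with edgeR 4.0.16 (TMM, filterByExpr, quasi-likelihood F test, two-sided, Benjamini-Hochberg over all genes tested, threshold 0.05), and all 6 genes passed the filter in each fit. Scripts were tested on simulated data. Within-set differences are of log2(CPM + 1). Alternatives were DESeq2 1.42.0, RLE factors, no filter, a replicate block, a set term, 10% mitochondrial share, doubled doublet rate, resolution 0.5, clustering scaled within libraries, 3 bins in place of 4 or 5, every second landmark gene, and each library left out. Score boundaries common to all libraries, a lower villus list without the Reg genes, and bins at a 10% mitochondrial share with sham 1 left out were added after the data were seen. The files gave 5 matrices and 0 columns of no sample. 1 selenium-pathway gene of 21 listed was not found by symbol.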

Additional observations from a re-analysis of the deposited data

Results flagged for a closer look

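The villus difference of 2 genes differed between the surgery groups in a test of the difference itself. For Gpx1 the interaction of surgery with the step from the lower-villus to the tip bin was -1.12 (log2, resection minus sham), with a mean difference of -2.24 in the 2 resection libraries and -1.11 in the 3 sham libraries. For Gpx2 the interaction was -0.83, with means of -1.28 and -0.45. Both kept their call with any 1 library left out, with adjusted p of 0.000989 to 0.00300 for Gpx1 and 0.000592 to 0.0231 for Gpx2. Over all alternatives the adjusted p ranged from 2.39e-07 to 0.0505 for Gpx1 and from 1.11e-05 to 0.143 for Gpx2. The resection libraries also reached higher tip scores, as given with the result. Groups of 3 and 2 libraries are too small for a check for single outlying samples.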

How the results depend on the processing

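Over the alternatives that leave out no library, 438 of 468 differences of single genes kept direction and side of the threshold, 4 lost it, 5 gained it and 21 changed sign; with 1 library left out the numbers were 226, 1, 3 and 40 of 270. Where the cause is not named it was not tested.

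The replicate numbers of the labels pair no libraries by any stated source, and only 2 pairs exist. Deviations of resection 1 correlated with those of sham 1 at 0.54 in enterocyte-like cells. Those of resection 2 correlated with sham 2 at 0.18 and with sham 3 at 0.48. With 2 resection libraries the deviations of each mirror those of the other, so these values are not independent. With a replicate block, 49, 146, 40, 56 and 246 genes were called in enterocyte-like, immature, crypt progenitor-like, Paneth-like and all epithelial cells, and 1 of the 6 genes, Mt2, in enterocyte-like (1.84, adjusted p = 0.0190) and all epithelial cells (0.84, adjusted p = 0.0368).

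DESeq2 called 64, 2, 2, 5 and 33 genes in these populations. With no filter 211 were called in enterocyte-like, 12 in crypt progenitor-like, 11 in Paneth-like and 18 in all epithelial cells, and with the set of libraries as a term 1 in enterocyte-like, 1 in immature, 9 in Paneth-like and 1 in all epithelial cells. A mitochondrial share of at most 10% gave 26 in enterocyte-like cells, and the doubled doublet rate and resolution 0.5 each gave 1 in Paneth-like cells, against 3. Leaving out 1 library gave 0 to 3 calls in enterocyte-like cells (3 without resection 2) and 0 to 11 in Paneth-like cells (0 without sham 3, 1 without sham 2, 7 without resection 2 and 11 without sham 1). Along the crypt-to-villus bins the interaction called 0 to 2 of the 6 genes, 2 without sham 3, where 1.08% of all genes passed. Along the villus bins it called 1 with every second landmark gene left out, 1 with common boundaries and 1 without the Reg genes, where 0.857%, 0.937% and 1.77% of all genes passed.

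The differences that changed sign did not pass before or after. In enterocyte-like cells Mtf1 was 0.090 with the replicate block and 0.050 with the set term. In immature cells Mt1 was -0.015 at resolution 0.5 and -0.028 with scaled clustering. Gpx1 there was 0.0038 with no filter, 0.11 with the replicate block and 0.10 with the set term. Gpx4 there was 0.17, 0.15, 0.061 and 0.095, and Mtf1 0.12, 0.051, 0.086 and 0.12, with the replicate block, the set term, resolution 0.5 and scaled clustering. Gpx4 was -0.012 in crypt progenitor-like cells with the doubled doublet rate. At a 10% mitochondrial share Mtf1 was -0.12 in all epithelial cells and 0.24 for the interaction along the crypt-to-villus bins (0.21 with sham 1 left out too, since it kept under 20 cells in a bin). Without the Reg genes the villus interaction was 0.11 for Mt1 and 0.025 for Mt2.

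With 1 library left out, Mtf1 ranged from -0.22 to 0.15 in enterocyte-like cells. In immature cells Mt1 ranged from -0.70 to 0.55, Mt2 from -0.86 to 0.87, Gpx1 from -0.54 to 0.37, Gpx4 from -0.42 to 0.26 and Mtf1 from -0.22 to 0.13. In crypt progenitor-like cells Mt1 ranged from -0.71 to 0.56, Mt2 from -0.67 to 1.08, Gpx1 from -0.24 to 0.31 and Gpx4 from -0.32 to 0.29. In Paneth-like cells Mt1 ranged from -0.21 to 0.64, Mt2 from -0.34 to 0.66, Gpx4 from -0.033 to 0.96 and Mtf1 from -0.13 to 0.75. In all epithelial cells Mt1 ranged from -0.14 to 0.66, Mt2 from -0.45 to 0.76, Gpx1 from -0.81 to 0.056 and Mtf1 from -0.13 to 0.27. The crypt-to-villus interaction ranged from -0.40 to 1.40 for Mt2 and -0.62 to 0.086 for Gpx2, Mtf1 along the villus bins from -0.018 to 0.066, and the villus interaction of Mt1 from -0.55 to 0.26.

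Without 1 resection library the other is taken to vary like the sham libraries. The 10% mitochondrial share was not run for immature and crypt progenitor-like cells (under 20 cells in sham 1), nor resolution 0.5 for crypt progenitor-like cells (under 20 cells in 3 libraries). Mtf1 and Paneth-like values are limited by depth.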

Other observations

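The 6 genes also varied between the enterocyte-like clusters, which differ in leading genes and mostly come from 1 library. Values here are unscaled CPM in the cells of 1 cluster and 1 library, with no test, for combinations of at least 40 cells. Cluster 1, led by Ada, a gene of purine metabolism, and Cyp3a11, held 1401 cells of resection 2 and 70 of sham 2. In it Gpx1 was 81.3 in resection 2 and 112 in sham 2, and Gpx2 was 343 and 298, the lowest Gpx2 values among these combinations. Mt1 there was 145 in sham 2 and 355 in resection 2. Mtf1 was 16.6 and 38.8, and its sham 2 value rests on few UMIs in the 70 cells.

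Cluster 6 was led by Areg, Gsta1 and Edn1. Among the enterocyte-like combinations that met the cell limit, it had the highest Mt1 in each of its 3 libraries. Mt1 was 474 in sham 2, 704 in sham 3 and 893 in resection 2. The 34 cells of sham 3 in cluster 3, below the limit, had a higher Mt1, at 932. Gpx1 was high in cluster 6 as well, at 569, 524 and 526. The 26 cells of sham 3 in cluster 20, also below the limit, had a Gpx1 of 639. In resection 1, whose enterocyte-like cells lay mostly in clusters 7, 9 and 19, Gpx1 was 74.9 in cluster 7 (led by Lct and Apoa4), 70.2 in cluster 9 (led by Sgk1 and Abcb1a) and 324 in cluster 19 (led by Fgf15). Gpx2 in cluster 20, led by the interferon-stimulated genes Isg15, Ifit1 and Rsad2, was 2091 in the 45 cells of resection 1. It was 793 in the 42 of sham 2 and 590 in the 68 of resection 2. The 26 cells of sham 3, below the limit, had 1279.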
